A study of Bos taurus with 12 samples.

Results

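The 9 genes described here mark the B lymphocyte: MS4A1, CD79A, CD79B, PAX5, CD22, BANK1, CR2, TNFRSF13C and EBF1. They were taken by gene name from the table of raw gene counts, where each name was carried by 1 Ensembl identifier, and they are 9 of the 27429 genes counted. All 9 passed the minimum of a mean of 10 reads over the libraries, which 11990 genes passed. The rule names the genes for the cell type they belong to and uses none of their values, but they were chosen with earlier results of these data known. The libraries come from 12 Holstein cows, whose jugular blood was taken 7 days after calving, with 1 library for each cow. Of these cows, 6 had received injected trace elements (labelled mineral supplementation, called supplemented here) and 6 were controls. The sources used here do not name the elements, the dose or the day of injection, nor what the controls received or how old the cows were. All cows were female, their RNA was depleted of haemoglobin transcripts, and the labels name the cells as white blood cells.

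A B cell carries a B cell receptor, which is a membrane immunoglobulin that binds antigen and is held together with the signalling pair CD79A and CD79B. Other proteins at the surface set the strength of that signal or keep the cell alive, and a small group of transcription factors, PAX5 and EBF1 among them, holds the cell in the B lineage. In blood most of these transcripts are found in B cells that have not yet become antibody-secreting plasma cells, since the plasma cell programme shuts PAX5 and many of its target genes down.

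Levels are given as CPM, the usual count of a gene set against the total count of its library, scaled between libraries by the trimmed mean of M-values (TMM), and libraries are named by group and cow number. The numbers only name the cows and pair none of them. Total counts ran between 6778640 and 16851541 reads. Markers fixed for T cells, NK cells, monocytes, neutrophils, platelets, erythroid cells and plasma cells were also read. Of those found by name, none was at 0 in all 12 libraries. That result cannot decide whether the labelled cell type is right, because any read in any library lifts a marker above 0. Supplemented cow 6 stood apart, with a summed level of neutrophil markers of 91480 CPM, where the other 11 libraries lay between 322 and 12018 CPM. CPM is a share of all reads of a library. Fewer B cells, less B cell RNA per cell and more RNA from other cells therefore cannot be told apart in any result below. The sources used here do not state whether cells were separated before RNA was extracted. Uneven recovery of cell types between libraries was not tested.

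No member differed between the groups beyond the spread among cows, and all 9 varied over a wide range inside each group. MS4A1 (ENSBTAG00000004580), which encodes CD20, a membrane protein of mature B cells, had 1003, 161, 1320.0, 913, 1039 and 183 CPM in supplemented cows 1 to 6, against 848, 1175, 855, 457, 376 and 1268 CPM in control cows 1 to 6. The groups overlapped: supplemented cows 2 and 6 were lowest, control cows 4 and 5 came next, and the other 8 cows of both groups were mixed above them. The highest cow had 8.20-fold the level of the lowest. Its mean was 770 ± 483 CPM in supplemented cows and 830 ± 363 CPM in control cows (SD, n = 6 per group), a log2 fold change of -0.11 ± 0.51 (SE) with an adjusted p of 0.999 in edgeR's quasi-likelihood test with Benjamini-Hochberg adjustment over all genes tested.

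The signalling pair of the receptor was spread in the same way. CD79A (ENSBTAG00000001882), which carries the activation motif of the pair's alpha chain, had a lowest, median and highest level of 160, 796 and 1011 CPM in supplemented cows and 354, 961 and 1248 CPM in control cows. For CD79B (ENSBTAG00000044204), the beta chain, these were 77.9, 566 and 895 CPM in supplemented cows and 195, 647 and 803 CPM in control cows. Both had their 4 lowest values in supplemented cows 2 and 6 and control cows 4 and 5, and the groups overlapped. The log2 fold changes were -0.33 ± 0.48 for CD79A and -0.19 ± 0.57 for CD79B (SE; edgeR with Benjamini-Hochberg adjustment, adjusted p = 0.999 for each).

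**Figure D1:**
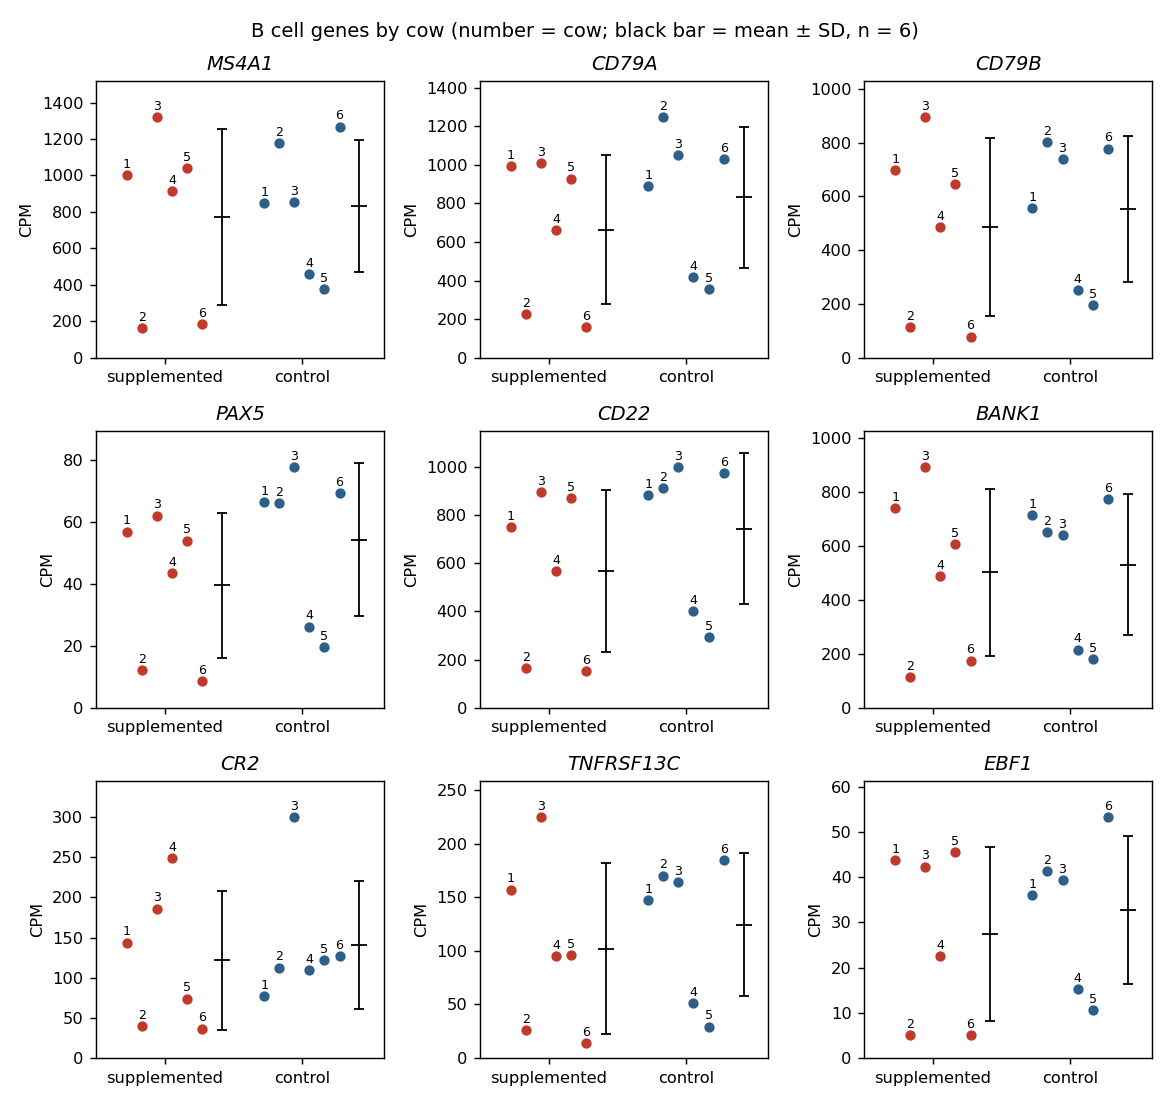
CPM of each of the 9 genes (linear vertical axis, starting at 0) in the 6 supplemented cows on the left and the 6 control cows on the right of each panel; each point is 1 cow with its number, and the black bar is the mean ± SD. In every panel but that of CR2 the 4 lowest points are supplemented cows 2 and 6 and control cows 4 and 5.

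Of the other surface proteins, CD22 (ENSBTAG00000011887), an inhibitory co-receptor that binds sialic acid, had a lowest, median and highest level of 152, 660 and 897 CPM in supplemented cows and 292, 898 and 999 CPM in control cows. TNFRSF13C (ENSBTAG00000026489), the receptor for the survival factor BAFF, had 14.0, 95.4 and 225 CPM in supplemented cows and 29.2, 156 and 185 CPM in control cows. TNFRSF13C had the widest range of the 9 genes, 16.1-fold between the highest and the lowest cow, and CD22 the narrowest, 6.58-fold. Both had the same 4 cows at the bottom as CD79A. Their log2 fold changes were -0.39 ± 0.48 for CD22 and -0.29 ± 0.63 for TNFRSF13C (SE; edgeR with Benjamini-Hochberg adjustment, adjusted p = 0.999 for each).

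CR2 (ENSBTAG00000038496) encodes CD21, the receptor for complement fragments that lowers the threshold of the B cell receptor, and it was ordered differently among the cows. It had 144, 39.3, 186, 249, 74.0 and 36.4 CPM in supplemented cows 1 to 6, against 76.7, 112, 299.9, 109, 122 and 127 CPM in control cows 1 to 6. Its 4 lowest cows were supplemented cows 2, 5 and 6 and control cow 1, and control cow 3 was highest, so that control cows 4 and 5, low in every other member, were in the middle for CR2. Its mean was 121 ± 86.3 CPM in supplemented cows and 141 ± 79.7 CPM in control cows (SD, n = 6 per group), with overlapping groups and a log2 fold change of -0.22 ± 0.49 (SE; edgeR with Benjamini-Hochberg adjustment, adjusted p = 0.999). Without control cow 3 this log2 fold change was 0.15.

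BANK1 (ENSBTAG00000015297), an adaptor that links the receptor to the release of calcium inside the cell, had a lowest, median and highest level of 114, 548 and 893 CPM in supplemented cows and 182, 646 and 776 CPM in control cows. The groups overlapped, and the log2 fold change was -0.08 ± 0.52 (SE; edgeR with Benjamini-Hochberg adjustment, adjusted p = 0.999).

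The transcription factors were counted with fewer reads. PAX5 (ENSBTAG00000012498), which commits a precursor to the B lineage and keeps it there, had a lowest, median and highest level of 8.53, 48.7 and 61.9 CPM in supplemented cows and 19.5, 66.1 and 77.6 CPM in control cows. EBF1 (ENSBTAG00000037508), which acts upstream of and together with PAX5, had 5.02, 32.4 and 45.5 CPM in supplemented cows and 10.7, 37.7 and 53.2 CPM in control cows. Both kept the order of the receptor genes, with supplemented cows 2 and 6 lowest and control cows 4 and 5 next. The lowest EBF1 value rested on 34 reads, with a Poisson 95% interval of 23.5 to 47.5 reads that covers counting error only. The log2 fold changes were -0.46 ± 0.50 for PAX5, the farthest from 0 of the 9, and -0.26 ± 0.58 for EBF1 (SE; edgeR with Benjamini-Hochberg adjustment, adjusted p = 0.999 for each).

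Over the 9 members together, 0 passed the adjusted threshold of 0.05 in edgeR, where 0 of 11990 genes did (0%), and 0 passed an unadjusted 0.05, where 191 genes did (1.59%). DESeq2 also called 0 of the 9, against 2 of all genes (0.0167%), and limma-voom called 0 of all genes. The groups overlapped in all 9 members, and they did not overlap in 6 of all genes tested (0.05%). All 9 log2 fold changes were negative, with a median of -0.26, beside 48.5% negative and a median of 0.01 over all genes tested. The 9 are not separate observations of the groups, since they move together from cow to cow, as described below. In the authors' deposited table of DESeq2 results, the 9 log2 fold changes lay between -0.45 for PAX5 and -0.06 for BANK1.

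The negative sign depended on which cows entered. The libraries carry 1 of a pair of first index sequences, per the deposited sequencing summary, and among the 5 supplemented and 3 control cows that share the more frequent one, 8 of the 9 log2 fold changes were positive: 0.66 for MS4A1, 0.30 for CD79A, 0.50 for CD79B, 0.12 for PAX5, 0.20 for CD22, 0.74 for BANK1, 0.52 for TNFRSF13C and 0.54 for EBF1. CR2 was at -0.36 there, and 0 of the 9 passed the adjusted threshold in edgeR. Of the 4 cows low in most members, supplemented cow 6 and control cows 4 and 5 were kept in this comparison. Supplemented cow 2 and control cows 1, 2 and 6 were left out of it. The other index, with 1 supplemented and 3 control cows, allows no comparison. With all indexes and 1 cow left out at a time, MS4A1 ranged between -0.33 and 0.11, CD79B between -0.45 and 0.045 and BANK1 between -0.32 and 0.13 in log2 fold change. The sign was positive for each of these 3 without supplemented cow 2 and without supplemented cow 6, the cows lowest in B cell transcripts. It was also positive for MS4A1 without control cow 2 or control cow 6, and for BANK1 without control cow 1 or control cow 6. CR2 turned positive without control cow 3. For CD79A, PAX5, CD22, TNFRSF13C and EBF1 the sign stayed negative whichever cow was left out.

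**Figure D2:**
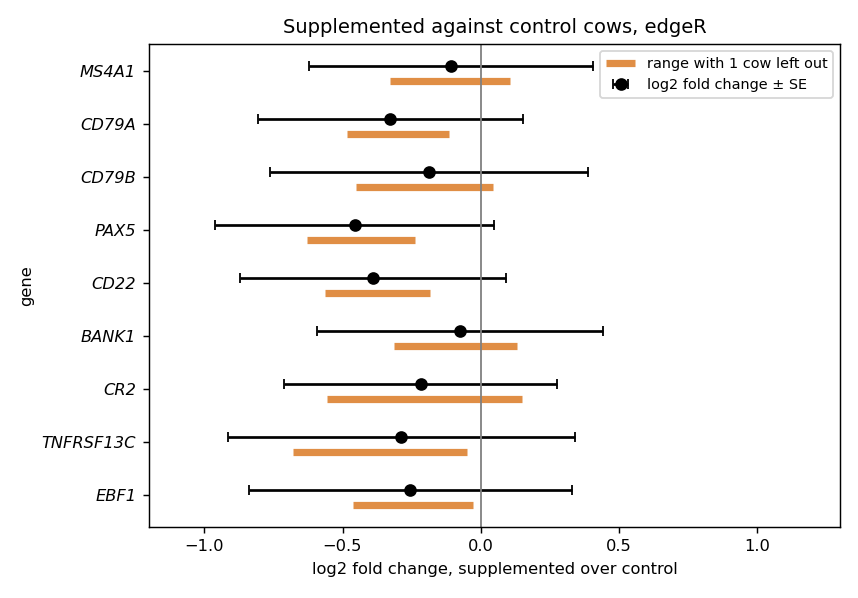
Log2 fold change of each gene, supplemented over control cows (horizontal axis, log2 units), from edgeR over 6 cows a group: black points with bars are the value ± SE, and orange bars are the range of values with 1 cow left out at a time. Every black bar crosses 0, from MS4A1 at -0.11 ± 0.51 to PAX5 at -0.46 ± 0.50, and the orange bars of MS4A1, CD79B, BANK1 and CR2 cross it too.

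The members changed nearly in proportion to one another from cow to cow, CR2 excepted. If 2 genes keep a fixed ratio, the SD over the 12 cows of the log2 of that ratio is near 0, and the scaling between libraries cancels in it. The log2 CPM of the genes themselves had SDs between 0.93 and 1.32, with a median of 1.06. The log2 ratios of the 28 pairs that do not include CR2 had a median SD of 0.30 and a highest SD of 0.47, so each of these ratios varied less over the cows than any of the 9 genes did. PAX5 and CD22 formed the tightest pair, with an SD of 0.13, although PAX5 was counted with far fewer reads. CD79A followed both, with SDs of 0.16 against CD22 and 0.17 against PAX5. The receptor subunits CD79A and CD79B had an SD of 0.25 between them, and CD79B and EBF1 one of 0.23. The 8 pairs that include CR2 had SDs between 0.78 and 0.97, where CR2 alone had 0.93. CR2 still shared part of the pattern, since supplemented cows 2 and 6, low in the other members, were lowest in CR2 as well.

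**Figure D3:**
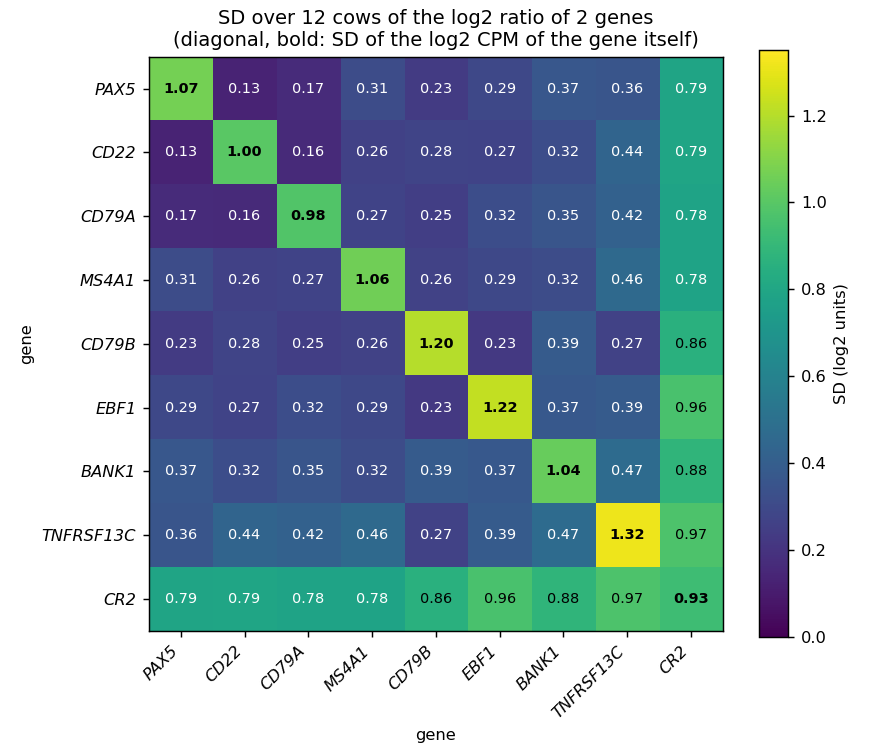
SD over the 12 cows of the log2 ratio of every pair of the 9 genes (colour and number, log2 units), with the SD of each gene's own log2 CPM in bold on the diagonal. Off the diagonal the values without CR2 lie between 0.13 and 0.47, and the row and column of CR2 lie between 0.78 and 0.97.

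The proportions held in both groups. The median SD over all 36 pairs was 0.38 among supplemented cows and 0.26 among control cows, and over the 28 pairs without CR2 it was 0.34 among supplemented cows and 0.24 among control cows. The genes' own spread was also wider among supplemented cows, with a median SD of 1.24 there and 0.85 among control cows. Whether the groups differ in this spread was not tested. Within the more frequent first index, the median over the 36 pairs was 0.38, and over all 12 cows it was 0.34.

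Set against MS4A1 in the same cow, the level of CR2 varied 4.92-fold, between 0.0712 of the MS4A1 CPM in supplemented cow 5 and 0.351 in control cow 3. The ratios of the other 7 genes to MS4A1 varied between 1.86-fold for EBF1 and 2.51-fold for TNFRSF13C. These ratios are used only between cows, since gene lengths were not used. As a share of the reads of all 9 members, CR2 took 1.70% in supplemented cow 5 (95% Wilson interval 1.601 to 1.80%), 7.06% in supplemented cow 4 (6.84 to 7.29%) and 7.70% in control cow 5 (7.20 to 8.22%). These intervals cover counting error only, and they do not overlap between supplemented cow 5 and the other pair. The mean share of CR2 was 4.05% ± 1.81 in supplemented cows and 4.31% ± 2.49 in control cows (SD, n = 6 each), so its spread lay inside the groups.

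Other departures were smaller and sat in a few cows. In supplemented cow 6, BANK1 took 21.6% of the members' reads (95% Wilson interval 20.8 to 22.4%), where the median cow had 13.9%, and TNFRSF13C took 1.72% (1.48 to 1.999%), where the median cow had 3.15%. On the log2 scale, centred on each gene's mean over the cows, BANK1 stood 0.70 above the mean of the 9 genes in that cow and TNFRSF13C stood at -0.60. TNFRSF13C was also at -0.60 in control cow 5. CR2 was at -1.03 in supplemented cow 5 and -1.01 in control cow 1, and at 0.90 in supplemented cow 4 and 1.07 in control cow 5. Supplemented cow 6 is the library with the very high neutrophil markers, and their part in the BANK1 and TNFRSF13C shares was not tested.

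**Figure D4:**
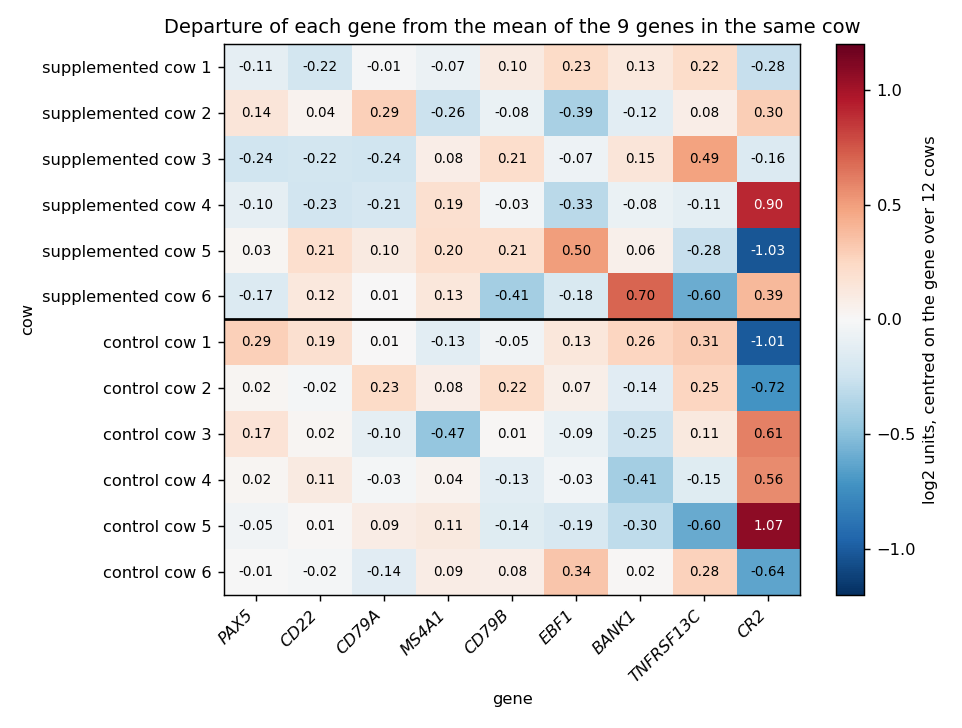
Departure of each gene (columns) from the mean of the 9 genes in the same cow (rows, supplemented cows above the line and control cows below), in log2 units after each gene was centred on its mean over the 12 cows. The CR2 column reaches from -1.03 in supplemented cow 5 to 1.07 in control cow 5, and outside it the value farthest from 0 is 0.70, of BANK1 in supplemented cow 6.

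The sum of the 9 members set the cows apart by a factor near that of its genes. It was 0.0582% of all reads in supplemented cow 6 (95% Wilson interval 0.0571 to 0.0594%) and 0.0859% in supplemented cow 2 (0.0837 to 0.0882%), against 0.149% in control cow 5 (0.147 to 0.152%) and 0.203% in control cow 4 (0.1998 to 0.2061%). The other 8 cows lay between 0.386% in supplemented cow 4 and 0.57% in supplemented cow 3. The 4 low cows, 2 of each group, were thus set off from the rest by a gap.

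The cows low in B cell transcripts were among those high in CD3E. CD3E, a signalling chain of the T cell receptor complex, had 107, 490, 68.0, 352, 164 and 315 CPM in supplemented cows 1 to 6, against 92.8, 124, 177, 371, 464 and 69.2 CPM in control cows 1 to 6. Supplemented cow 3 and control cow 6, the highest in MS4A1, were the lowest in CD3E, and supplemented cow 2, the lowest in MS4A1, was the highest in CD3E. The ratio of MS4A1 to CD3E counts therefore ran over a 58.9-fold range. It was 9.35, 0.329, 19.4, 2.59, 6.35 and 0.581 in supplemented cows 1 to 6, against 9.13, 9.49, 4.82, 1.23, 0.810 and 18.3 in control cows 1 to 6. CD3E had more reads than MS4A1 in supplemented cows 2 and 6 and in control cow 5.

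The balance of B to T cell transcripts did not differ between the groups beyond the spread among cows. The log2 ratio of MS4A1 to CD3E was 1.53 ± 2.32 in supplemented cows and 2.15 ± 1.78 in control cows (SD over 6 cows each), a difference of -0.62 with p = 0.615 in an exact two-sided permutation test over every split of the cows into 6 and 6. Of the supplemented cows, 3 of 6 were below the control mean. The direction was not stable: the difference was 1.40 among the cows of the more frequent first index (exact permutation p = 0.357) and 0.0026 without supplemented cow 2 (exact permutation p = 0.983), and over the 17 alternatives the exact p ran between 0.346 and 0.983. Over whole lists, the mean log2 CPM of the 9 members minus that of 11 T cell markers was 2.33 ± 2.20 in supplemented cows and 3.07 ± 1.76 in control cows (SD over 6 cows each), a difference of -0.74 that is given with no test. Within the more frequent first index it was 1.11, an alternative chosen after the data were seen.

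**Figure D5:**
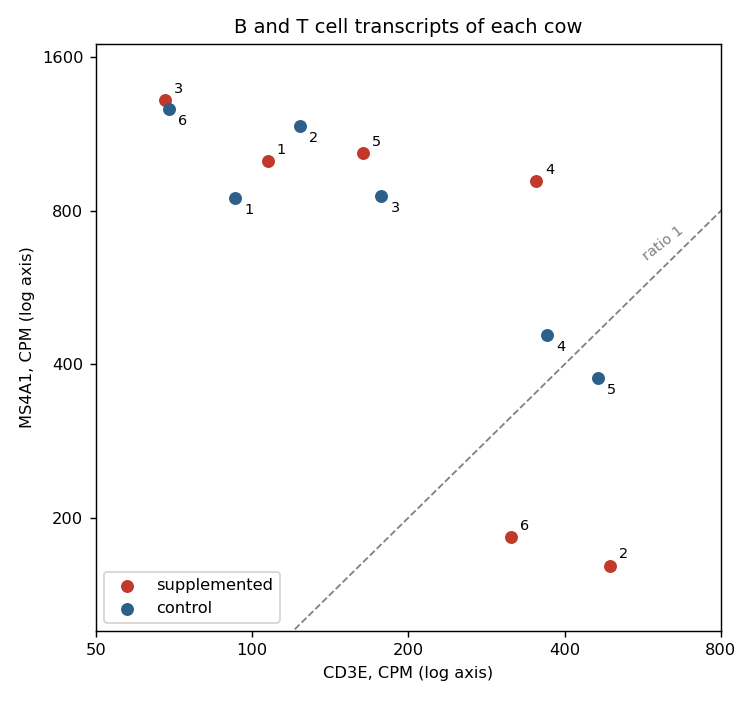
MS4A1 (vertical, CPM, log axis) against CD3E (horizontal, CPM, log axis) in the 6 supplemented and 6 control cows, with the cow number beside each point and a dashed line where the levels are equal. Supplemented cows 2 and 6 and control cow 5 lie below the line, and supplemented cow 3 and control cow 6 lie at the top left.

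Markers of the other cell types were also compared with this order. The summed level of the 11 T cell markers ran between 184 and 1385 CPM in supplemented cows (median 712) and between 200.1 and 1298 CPM in control cows (median 439). The 8 monocyte markers found summed to 7480 and 8288 CPM in supplemented cows 2 and 6 and to 4576 and 5550 CPM in control cows 4 and 5, and every other cow was at 2946 CPM or lower. Of the 8288 CPM in supplemented cow 6, 4959 CPM were CSF3R, which neutrophils also express. Without CSF3R, left out after the data were seen, the other 7 markers summed to 6651 and 3330 CPM in supplemented cows 2 and 6 and to 3973 and 4275 CPM in control cows 4 and 5, with every other cow at 2605 CPM or lower. Neutrophil markers were likewise highest in these 4 cows, at 3146 and 91480 CPM in supplemented cows 2 and 6 and at 12018 and 3099 CPM in control cows 4 and 5, with every other cow at 1559 CPM or lower. The NK cell markers found summed to between 49.5 and 450.3 CPM in supplemented cows and between 50.9 and 346 CPM in control cows, and supplemented cow 4, with 349 CPM, was above both low control cows. Platelet markers summed to between 149 and 859 CPM in supplemented cows and between 108 and 2191 CPM in control cows, and supplemented cow 5, with 699.9 CPM, was above control cow 4. Erythroid markers summed to between 7.09 and 381 CPM in supplemented cows and between 2.96 and 301 CPM in control cows. They did not follow the order of the B cell genes: supplemented cow 5 was highest, and supplemented cow 2 had 43.4 CPM. HBB and HBA, the highest of these erythroid markers, are haemoglobin genes, and the RNA was depleted of haemoglobin transcripts. The erythroid sums therefore cannot be read as erythroid content, and the part of the depletion was not tested. The part of these cell types in the levels of the 9 members was not tested.

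Between groups, 0 genes of these marker lists passed the adjusted threshold in edgeR. The median log2 fold change was 0.23 over the 11 T cell markers tested (10 positive), 0.55 over 6 NK cell markers (6 positive), 0.58 over 8 monocyte markers (7 positive) and 2.37 over 8 neutrophil markers (8 positive). Within the more frequent first index the medians were -0.63 for T cell, -0.08 for NK cell and -0.21 for monocyte markers, so their direction turned. The T cell median was -0.0074 without supplemented cow 2, and the neutrophil median was -0.97 without supplemented cow 6. Platelet markers had a median of -0.53 over 3 genes and erythroid markers 0.05 over 3 genes; within that index they were -1.52 and, with the sign turned, -0.34. Of their genes, CATHL2, a neutrophil granule cathelicidin, had an unadjusted p under 0.05 (0.0146), at 159 ± 387 CPM in supplemented cows and 1.41 ± 2.36 CPM in control cows (SD, n = 6 per group; edgeR with Benjamini-Hochberg adjustment, adjusted p = 0.999). The supplemented mean rested on supplemented cow 6, at 949 CPM, where the other supplemented cows had between 0.13 and 1.89 CPM. Of all genes tested, 1.59% had an unadjusted p under 0.05 in edgeR. The highest mean levels of each list, given as supplemented against control cows in CPM (mean ± SD, n = 6 each), were those of CD3E (249 ± 163 against 216 ± 163) and CD3D (103 ± 60.0 against 82.6 ± 58.5) for T cells. For NK cells they were those of PRF1 (183 ± 109 against 111 ± 66.8) and NKG7 (43.0 ± 33.4 against 28.4 ± 17.5), and for monocytes those of LYZ (2133 ± 1576 against 1794 ± 1114) and CSF3R (1092 ± 1914 against 428 ± 464). S100A12 (7084 ± 15611 against 1395 ± 2061) and S100A9 (5224 ± 11722 against 990 ± 1612) led the neutrophil markers, with supplemented cow 6 far above the rest. Platelet markers were led by TUBB1 (429 ± 313 against 619 ± 721) and ITGA2B (41.4 ± 21.2 against 59.4 ± 39.0), and erythroid markers by HBB (73.2 ± 87.9 against 71.1 ± 77.0) and HBA (26.1 ± 34.6 against 17.5 ± 19.0).

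Genes of the rest of the B cell programme ranged from close to the 9 members to unlike them. Likeness was measured as the SD over the 12 cows of the log2 ratio of a gene to the mean log2 CPM of the members, over the 9162 genes outside the members with a name and a mean of at least 5 CPM. The median gene had an SD of 1.05, and 279 of the 9162 genes (3.05%) had an SD under 0.5. The 10 most like the members were BLNK, the adaptor that couples the receptor to its downstream enzymes (SD 0.17), FCRL1, a receptor of the Fc receptor-like family on B cells (0.18), and then SEMA4B (0.20), XPO5 (0.20), DNMT3B (0.20), STX10 (0.22), POLD2 (0.23), ACCS (0.23), HABP4 (0.24) and HDAC9 (0.24). BLNK had 95.8 ± 61.9 CPM in supplemented cows and 109 ± 49.2 CPM in control cows, and FCRL1 had 70.3 ± 45.01 CPM in supplemented cows and 86.5 ± 34.4 CPM in control cows (SD, n = 6 per group). DNMT3B, a DNA methyltransferase, had 40.4 ± 24.5 CPM in supplemented cows and 49.5 ± 24.5 CPM in control cows, and XPO5, an export factor for microRNA precursors, had 62.0 ± 36.1 CPM in supplemented cows and 67.3 ± 30.7 CPM in control cows. All 10 had negative log2 fold changes, between -0.34 and -0.12, as had the members, and none passed the adjusted threshold in edgeR. Since they were picked for following the members over the same 12 cows, their sign is no separate result. Of all genes tested, 48.5% had a negative log2 fold change. With 1 cow left out, between 4 and 9 of the 10 names were kept, the fewest without supplemented cow 2.

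Each member was also placed among the 9162 genes by its SD against the mean of the other 8 members. For each member the SDs of those genes were taken anew against the same 8. The places below thus come from separate rankings, none of which holds another member. PAX5 came in place 1 with an SD of 0.17, CD22 in place 2 (0.17), CD79A in place 3 (0.18), CD79B in place 5 (0.20) and MS4A1 in place 8 (0.22). EBF1 came in place 41 (0.30), BANK1 in place 54 (0.33) and TNFRSF13C in place 131 (0.40). CR2 came in place 1643, with an SD of 0.83.

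Of the 69 tested genes in 4 lists of B cell genes, 19 (27.5%) had an SD under 0.5. That mark is a cut on a continuous scale, and a gene above it can still share the lowest cows of the members. In the list of receptor signalling 4 of 16 genes were under it, among them BLNK and the exchange factor RASGRP3 (0.47). The kinases LYN (1.06), SYK (0.69) and BTK (0.67), which myeloid cells also express, did not reach that mark. LYN and SYK had the highest mean levels in this list, with LYN at 968 ± 289 CPM in supplemented cows and 887 ± 179 CPM in control cows and SYK at 544 ± 219 CPM in supplemented cows and 519 ± 217 CPM in control cows (SD, n = 6 per group). By log2 fold change 8 of the 16 were positive and 8 negative, with a median of 0.03.

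Among the inhibitory receptors and phosphatases, 5 of 11 genes tested were under an SD of 0.5: FCRL1, FCRLA (0.30), the inhibitory Fc receptor FCGR2B (0.41), SIGLEC10 (0.42) and FCRL5 (0.48). FCRL3 was above that mark at 0.60, though it shared the 4 lowest cows of most members. It had 9.75 and 5.55 CPM in supplemented cows 2 and 6 and 11.1 and 22.9 CPM in control cows 4 and 5. Every other cow had 55 CPM or more of FCRL3. PTPN6 and INPP5D, phosphatases found in most leukocytes, were highest in mean level. PTPN6 had 739 ± 266 CPM in supplemented cows and 630 ± 171 CPM in control cows, and INPP5D had 374 ± 55.3 CPM in supplemented cows and 359 ± 80.9 CPM in control cows (SD, n = 6 per group). The list had 3 positive and 8 negative log2 fold changes, with a median of -0.28.

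Of the 19 transcription factors, 6 were under an SD of 0.5: the co-activator POU2AF1 (0.25), its partner POU2F2 (0.27), TCF4 (0.30), BCL11A (0.35), SPIB (0.44) and TCF3 (0.49). SPIB, an ETS family factor of B cells and plasmacytoid dendritic cells, had 528 ± 370 CPM in supplemented cows and 712 ± 435 CPM in control cows, with a log2 fold change of -0.43 ± 0.67 (SE). ETS1, expressed in T and B cells, had 545 ± 129 CPM in supplemented cows and 503 ± 44.4 CPM in control cows (SD, n = 6 per group) and an SD of the log2 ratio of 0.93. The list had 7 positive and 12 negative log2 fold changes, with a median of -0.06.

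Of the other B cell surface and cytoplasmic genes, 23 of 25 were tested and 4 were under an SD of 0.5, namely CIITA, the master regulator of MHC class II genes (0.39), VPREB3 (0.40), the proton channel HVCN1 (0.42) and RALGPS2 (0.45). CD24, which granulocytes also carry, was the least like the members (3.51), and it reached 3010 CPM in supplemented cow 6. CD37 had 333 ± 80.6 CPM in supplemented cows and 380 ± 108 CPM in control cows (SD, n = 6 per group). The list had 8 positive and 15 negative log2 fold changes, with a median of -0.11. Within the more frequent first index the list medians were 0.29 for receptor signalling, 0.38 for inhibitory receptors and phosphatases, 0.35 for transcription factors and -0.03 for this list, so the sign turned for inhibitory receptors and transcription factors. Over the 4 lists and all cows, 43 of the 69 log2 fold changes were negative, where 48.5% of all genes tested were. In edgeR 0 of the 69 genes passed the adjusted threshold of 0.05, where 0% of all genes did. Likewise 0 passed an unadjusted 0.05, where 1.59% of all genes did. Genes that move together from cow to cow are not separate observations of the groups.

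Of the genes of antibody secretion tested, the plasma cell markers included 1 of 9, DERL3 (0.32), under an SD of 0.5. Of 12 immunoglobulin gene names, JCHAIN, the joining chain of secreted IgM and IgA, was the 1 found in the table, and the membrane immunoglobulin of the receptor itself was not analysed here. JCHAIN had 169 ± 105 CPM in supplemented cows and 158 ± 65.3 CPM in control cows (SD, n = 6 per group), and its log2 ratio to the members had an SD of 1.52. The plasma cell markers summed to between 644 and 1137 CPM in supplemented cows and between 653 and 997 CPM in control cows, with supplemented cow 2, low in MS4A1, at the top. SSR4 had the highest mean level of these markers, at 287 ± 61.5 CPM in supplemented cows and 305 ± 45.3 CPM in control cows (SD, n = 6 per group). The median log2 fold change of the 9 was 0.01, with 5 positive and 4 negative, and within the more frequent first index it was -0.37. Of the 11 T cell markers, 0 were under an SD of 0.5, and theirs lay between 1.80 and 2.12.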

How the data were processed

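Haemoglobin-depleted RNA from jugular blood of 12 cows was sequenced in read pairs on an Illumina NovaSeq, per the labels' protocols. FastQC, STAR, featureCounts, DESeq2 and the build ARS-UCD1.2 are named in the submitters' processing notes. The sources used here give neither the annotation nor the strand setting, so reads of overlapping or antisense genes cannot be told apart. The deposited raw counts, whole numbers for each gene and library, were the input. For each gene the authors' deposited DESeq2 table holds, per the file headers, the mean normalised count (a signal), the log2 fold change and its standard error, the Wald score and the p-values. Deposited biochemical and milk values were not used here.

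Groups follow the treatment label. None of the 66 pairs of libraries agreed within sampling noise; the smallest chi-square was 12.1 for each degree of freedom. Genes with a mean count of at least 10 were tested in edgeR 4.0.16 (quasi-likelihood, robust, TMM scaling, R 4.3.3), two-sided, with Benjamini-Hochberg adjustment over all genes and a threshold of 0.05; a standard error is the log2 fold change over the root of F. DESeq2 1.42.0, limma-voom (limma 3.58.1), other scalings and filters, the first index and each cow left out were alternatives. Log2 CPM used a prior count of 2, and 0.5 was added to each count in ratios, which were tested by exact permutation in Python 3.11.15 with numpy 2.4.6. The procedure was also run on simulated data, with planted changes far larger than those of the members. That run does not bear on changes of the size seen in the members. Total counts of 6778640 to 16851541 reads limit the precision of EBF1 and PAX5 most. Named genes are the 9 members, CD3E and CD3D, of each list the 2 highest in mean CPM and any with an unadjusted p under 0.05, and the 10 most like the members. Genes under an SD of 0.5, and CD24, BTK, FCRL3, DERL3 and the genes in the observations, were named after their values were seen. The members and lists were chosen with earlier results of these data known. A name carried by 2 identifiers (GZMB) was left out of its list, and LAIR1, GNLY, FCGR1A, CATHL1, PF4, PPBP and the other immunoglobulin names were not analysed here.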

Additional observations from a re-analysis of the deposited data

Results flagged for a closer look

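CR2 in control cow 3 was far above the other control cows, at a log2 CPM of 8.23 (299.9 CPM). Its gap to the nearest control cow was 0.629 of the range of the group, past the limit for 6 samples in Dixon's test. The other 5 control cows had between 76.7 and 127 CPM of CR2. In the other members control cow 3 lay inside the range of its group or, for PAX5 and CD22, slightly above the next cow. Of 38 groups of 6 values tested in this way, 1 was picked out, and chance picks out about 5%.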

How the results depend on the processing

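The count of genes past the threshold was 0 under every scaling and filter tried, with limma-voom, within the shared first index and with each cow left out, and it was 2 with DESeq2; the cause was not tested. The count of members past it was 0 under all of these. Within the shared first index the log2 fold change turned positive for MS4A1 (0.66), CD79A (0.30), CD79B (0.50), PAX5 (0.12), CD22 (0.20), BANK1 (0.74), TNFRSF13C (0.52) and EBF1 (0.54). There the MS4A1 to CD3E difference was 1.40, and fewer cows entered. With 1 cow left out the ranges were -0.33 to 0.11 for MS4A1, -0.48 to -0.12 for CD79A, -0.45 to 0.045 for CD79B, -0.63 to -0.24 for PAX5, -0.57 to -0.19 for CD22, -0.32 to 0.13 for BANK1, -0.56 to 0.15 for CR2, -0.68 to -0.05 for TNFRSF13C and -0.46 to -0.03 for EBF1. They were -1.17 to 0.0026 for the MS4A1 to CD3E difference, -1.28 to -0.17 for the B to T difference over lists and 0.29 to 0.35 for the median pair SD. Within the shared first index the median turned to 0.35 for transcription factors, 0.38 for inhibitory receptors, -0.37 for plasma cell, -0.63 for T cell, -0.08 for NK cell, -0.21 for monocyte and -0.34 for erythroid markers. No paired analysis was possible because the replicate numbers only name the cows in accession order. Depth limits EBF1 and PAX5 in supplemented cow 2 most, with counts as low as 34 reads for EBF1. With 6 cows a group and SEs near 0.50, the data do not show that the groups are alike.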

Other observations

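Genes known from B cells also include some that were less like the members than the median gene, whose SD was 1.05; they were picked after their values were seen, and are given with no test. FCER2, the low-affinity IgE receptor of B cells, had 51.0, 110, 78.7, 81.1, 108 and 57.2 CPM in supplemented cows 1 to 6, against 66.2, 45.6, 35.6, 156, 77.0 and 101 CPM in control cows 1 to 6. It was highest in control cow 4, where MS4A1 was low, and its log2 ratio to the members had an SD of 1.36. FCMR, the Fc receptor for IgM, had 17.9, 43.6, 17.3, 45.1, 12.9 and 33.0 CPM in supplemented cows 1 to 6, against 12.3, 16.8, 21.2, 86.9, 33.2 and 20.6 CPM in control cows 1 to 6, with an SD of 1.70. In humans FCMR is also found on T and NK cells, and their part was not tested. The chemokine receptor CXCR5, with an SD of 1.07, was near the median gene, and the kinase BLK (0.85) and the inhibitory receptor CD72 (0.91) were closer to the members than that.

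The genes closest to CR2 by the same measure were A4GALT, with an SD of the log2 ratio to CR2 of 0.41, CERS4 (0.44), SMTN (0.45), NOC3L (0.46) and ZCCHC24 (0.48). The member closest to CR2 had an SD of 0.78. A4GALT, a glycosyltransferase, had 11.98 ± 7.79 CPM in supplemented cows and 14.2 ± 5.89 CPM in control cows, and CERS4, a ceramide synthase, had 51.4 ± 25.7 CPM in supplemented cows and 81.4 ± 51.6 CPM in control cows (SD, n = 6 per group). These genes were ranked on the same 12 libraries, so the order is a description of them.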
